A study of Homo sapiens with 6 samples.

Results

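TRiC, also called CCT, was represented by 8 genes of the 58336 in the deposited table: *TCP1*, *CCT2*, *CCT3*, *CCT4*, *CCT5*, *CCT6A*, *CCT7* and *CCT8*, each matched to its row by Ensembl identifier. These genes encode the distinct subunits of the chaperonin, and the rule that picks them uses no measured value, although they were chosen with earlier results of these data known. RNA was sequenced from A2780 cells, an established ovarian cancer (OC) line, after exposure to the mitotic MTH1 inhibitor TH588 at 6 µM for 48 h or to its vehicle, DMSO. There were 3 libraries per treatment, labelled as replicates A, B and C, and each was treated as a separate experiment. Both groups came from the same line, so the values describe 1 line at 1 dose and 1 time of TH588. The sample labels give no time for DMSO. In bulk RNA, fewer cells of a kind and less RNA per cell cannot be told apart.

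TRiC is the chaperonin of the eukaryotic cytosol, a barrel of stacked rings in which every ring carries the same set of subunits in a fixed order. Newly made tubulin and actin chains enter its cavity and are folded there in a cycle driven by ATP, and many WD40 repeat proteins, including the mitotic activator CDC20, are folded in it too. Prefoldin hands unfolded chains to the barrel, phosducin-like proteins act with it as cochaperones, and tubulin cofactors receive folded tubulin to build the heterodimer that microtubules need.

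The windows around the transcription starts of 3 subunit genes are shown because they carry the contrasts described below: *TCP1* had the largest fall, *CCT3* the smallest fall and the highest level, and the windows of *TCP1* and *CCT4* also hold the start of a second gene on the other strand. Each runs 5′ to 3′ on the strand of the subunit gene, from 250 bases before to 50 bases after the RefSeq start (GRCh38.p14). Capitals mark the CCAAT box, the word CGGAAGT that ETS factors recognise, and the heat shock element words GAANNTTC and TTCNNGAA with N for any base, each as it reads on either strand.
TCP1, chr6:159789553-159789852, minus strand: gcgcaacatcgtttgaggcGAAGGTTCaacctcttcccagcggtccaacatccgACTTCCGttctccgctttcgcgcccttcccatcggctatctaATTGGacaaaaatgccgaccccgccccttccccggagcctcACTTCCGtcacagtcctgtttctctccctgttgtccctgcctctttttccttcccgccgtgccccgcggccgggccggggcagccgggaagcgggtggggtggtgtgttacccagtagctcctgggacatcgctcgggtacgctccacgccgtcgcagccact
CCT4, chr2:61888607-61888906, minus strand: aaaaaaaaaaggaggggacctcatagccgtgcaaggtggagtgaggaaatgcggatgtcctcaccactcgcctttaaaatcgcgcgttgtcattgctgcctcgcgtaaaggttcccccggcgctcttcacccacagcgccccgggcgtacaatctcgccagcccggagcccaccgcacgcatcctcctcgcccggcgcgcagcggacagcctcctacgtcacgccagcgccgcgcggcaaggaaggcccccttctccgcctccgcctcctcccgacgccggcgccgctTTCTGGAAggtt
CCT3, chr1:156338243-156338542, minus strand: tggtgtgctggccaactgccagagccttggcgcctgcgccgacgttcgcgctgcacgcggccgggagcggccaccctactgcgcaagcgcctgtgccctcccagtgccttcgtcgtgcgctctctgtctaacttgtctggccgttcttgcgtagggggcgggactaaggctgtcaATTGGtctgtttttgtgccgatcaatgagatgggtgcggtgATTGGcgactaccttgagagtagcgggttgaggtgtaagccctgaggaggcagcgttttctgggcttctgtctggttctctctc

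Of the 8 genes, 7 had a window in the RefSeq promoter table, with 9 windows in all. The windows of *CCT3*, *CCT5* and *CCT7*, and 1 of those of *CCT2*, lie wholly past the outermost start of the gene in the deposited table. For *CCT5* the window begins at 10250287 and the outermost start is 10249921. For *CCT3*, *CCT5* and *CCT7* the search therefore did not cover the bases before the outermost start. Both strands were searched, the words were chosen after these sequences were seen, and each share is of all 35116 windows of the same length. The CCAAT box lay in *TCP1*, *CCT2*, *CCT3* and *CCT8*, in 4 of the 9 windows, against 34.6% of all windows. The ETS word CGGAAGT lay in *TCP1*, *CCT2* and *CCT7*, in 3 of the 9 windows, against 6.83% of all windows. *TCP1* held it at -196 and -113 from its start. The heat shock element word GAANNTTC lay in *TCP1*, at -231, and in *CCT2*, at -89 in 1 of its windows, against 6.77% of windows. The related word TTCNNGAA lay in *CCT4*, at 38 bases past its start in 1 of its windows, the one shown, against 7.74%. The GC box, GGGCGG and not capitalised above, lay in 5 of the 7 genes and 6 of the 9 windows, against 45.0% of all windows. The E-box CACGTG was in none of the 9 windows, against 7.26% of all windows. Nor was the cell cycle element TTTGAA, against 15.2%, or the TATA word TATAAA, against 11.5%. These matches describe the letters only.

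Total counts ran from 77634048 to 99074175 in 5 libraries and were 28537837 in TH588 replicate A, in which the small nucleolar RNA *SNORD3A* took 21.94% of counts, against 7.68% to 12.95% elsewhere. Among epithelial markers, *PAX8*, *WT1*, *KRT8* and *MUC16* stayed under 0.3 CPM in every library, so these defining markers of ovarian carcinoma were at or near 0. *KRT18* ran from 3.14 to 3.86 CPM with DMSO and from 6.13 to 7 CPM with TH588, and *EPCAM* from 0.497 to 0.886 and from 4.33 to 4.96 CPM. The leukocyte and endothelial markers *PTPRC* and *PECAM1* did not exceed 0.107 CPM, *COL1A1* ran from 2.58 to 4.94 CPM, and the mesenchymal gene *VIM* from 3329 to 4048 CPM. The part of these markers in the results below was not tested.

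All 8 subunit transcripts were lower after TH588. Values are normalized counts in CPM, that is counts per 1000000 of the TMM-scaled library size, and calls are at an adjusted p under 0.05 from edgeR's quasi-likelihood test on raw counts, with Benjamini-Hochberg adjustment over the 15844 genes tested. A lower call was made for 8 of 8 subunits, against 25.3% of all genes tested and 49.6% called in either direction, and all 8 passed the filter on low counts. In 8 of 8, every TH588 library also lay under every DMSO library, against 29.0% of all genes. The subunits were abundant, with mean log2 CPM from 8.84 to 10.35, and abundant genes fell more often: where mean log2 CPM was 8 or more (570 genes), 52.1% were called lower, 11.8% higher, and 56.0% had all TH588 libraries under all DMSO libraries. The median log2 fold change was -0.75 over the subunits, -0.26 over those 570 genes and 0.02 over all genes tested. The smallest p that exact two-sided permutation of 3 and 3 libraries allows is 0.1, so the calls rest on the model fitted across genes.

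**Figure D1:**
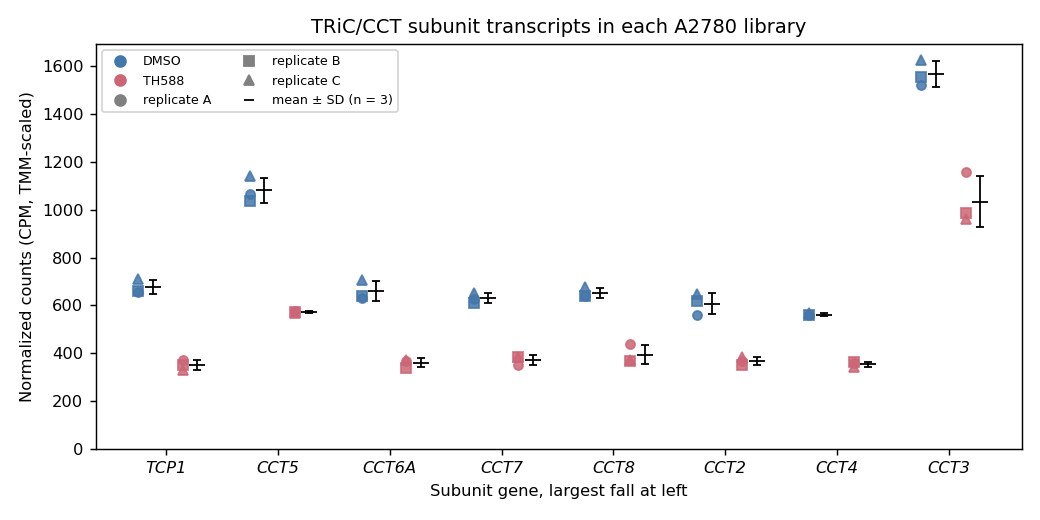
Normalized counts (CPM, TMM-scaled, linear axis from 0) of the 8 subunits in each library, ordered by log2 fold change, with DMSO in blue, TH588 in red, a marker shape per replicate and bars for mean ± SD (n = 3). No subunit has overlapping groups, and *CCT3* is the highest in every library, from 1524 to 1629 CPM with DMSO and from 961 to 1157 CPM with TH588.

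*TCP1* (ENSG00000120438, chromosome 6, 159778498 to 159789749, minus strand, GRCh38), the alpha subunit and the first to be described, had the largest fall. Its level was 658, 659 and 711 CPM in the DMSO libraries and 371, 352 and 328 CPM in the TH588 libraries, in the order A, B and C that is kept from here on. The groups were far apart, and the libraries highest in each were DMSO C and TH588 A. Treated libraries averaged 350.4 ± 21.2 CPM against 676 ± 30.4 CPM (SD, n = 3 each). The log2 fold change was -0.95 (SE 0.08, adjusted p = 1.63e-06, edgeR). Exons of other genes cover 11.1% of its exon bases, mostly the end of *ACAT2* on the other strand, whose log2 fold change was 0.12 (SE 0.08, not called). *CCT5* (ENSG00000150753, chromosome 5, 10249921 to 10266412, plus strand), the epsilon subunit, in which variants are known from a hereditary sensory neuropathy, had 1067, 1036 and 1139.9 CPM with DMSO and 577, 571 and 568 CPM with TH588. Its TH588 libraries were the most alike of any subunit, with a mean of 572 ± 4.79 CPM against 1081 ± 53.4 CPM (SD, n = 3 each), and the log2 fold change was -0.92 (SE 0.08, adjusted p = 1.34e-06, edgeR). An antisense long noncoding gene covers 30.1% of its exon bases, and that gene held 6 counts or fewer in each library. The strand setting is not given, so this does not show whether reads in the shared bases were counted for *CCT5*. *CCT6A* (ENSG00000146731, chromosome 7, 56051630 to 56063989, plus strand), the zeta subunit, had 629, 641 and 707 CPM with DMSO and 369, 338 and 373 CPM with TH588. It had no overlap between the groups either, and its log2 fold change was -0.87 (SE 0.08, adjusted p = 3.77e-06, edgeR).

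The middle of the range was held by *CCT7*, *CCT8* and *CCT2*, whose log2 fold changes differed from each other by less than the SE of any of them. *CCT7* (ENSG00000135624, chromosome 2, 73233420 to 73253021, plus strand), the eta subunit, had 626, 612 and 653 CPM with DMSO and 349, 383 and 385 CPM with TH588. Here TH588 A was the lowest library, and the log2 fold change was -0.76 (SE 0.08, adjusted p = 7.57e-06, edgeR). *CCT8* (ENSG00000156261, chromosome 21, 29055805 to 29073797, minus strand), the theta subunit, had 639, 641 and 675 CPM with DMSO and 439, 368 and 372 CPM with TH588. TH588 A stood above the other treated libraries but under every DMSO library, and the log2 fold change was -0.73 (SE 0.09, adjusted p = 2.51e-05, edgeR). *CCT2* (ENSG00000166226, chromosome 12, 69585334 to 69601570, plus strand), the beta subunit, in which variants are known from an inherited retinal dystrophy, had 559, 617 and 646 CPM with DMSO and 369, 351 and 385 CPM with TH588. Its DMSO libraries were the most spread of the 8 relative to their mean, 608 ± 44.3 CPM (SD, n = 3), and its log2 fold change was -0.72 (SE 0.08, adjusted p = 1.84e-05, edgeR).

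*CCT4* and *CCT3* fell least. *CCT4* (ENSG00000115484, chromosome 2, 61868089 to 61888804, minus strand), the delta subunit, had 559.8, 558 and 567 CPM with DMSO and 358, 363 and 343 CPM with TH588. Both groups were tight, at 562 ± 4.64 and 355 ± 10.7 CPM (SD, n = 3 each), and the log2 fold change was -0.66 (SE 0.07, adjusted p = 1.33e-05, edgeR). Exons of 2 genes on the other strand, *COMMD1* and a long noncoding gene, cover 12.6% of its exon bases. *CCT3* (ENSG00000163468, chromosome 1, 156308968 to 156367873, minus strand), the gamma subunit, had 1524, 1554 and 1629 CPM with DMSO and 1157, 985 and 961 CPM with TH588. On the TMM scale TH588 A was well above the other treated libraries but did not reach the lowest DMSO library. Treated libraries averaged 1034 ± 107 CPM against 1569 ± 53.7 CPM (SD, n = 3 each). The log2 fold change was -0.60 (SE 0.09, adjusted p = 0.000134, edgeR). Without TH588 A it was -0.68. The fits did not test one subunit's fall against another's.

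Within a treatment, the subunits shared some of the order of the libraries. DMSO C was the highest DMSO library for 8 of 8 subunits. Among treated libraries TH588 A was the highest for 4 subunits, TH588 C for 3 and TH588 B for 1. Summed over the 8 subunits, normalized counts were 6262, 6318 and 6728 CPM with DMSO and 3989, 3712 and 3716 CPM with TH588, so that the treated sum was 59.1% of the vehicle sum. On this TMM scale TH588 A, the shallowest library, had the highest treated sum, and the groups did not overlap. Per total counts, without TMM scaling, TH588 A had the lowest sum, at 3741.3 CPM against 4075.7 in TH588 B and 3994.4 in TH588 C. The order of the treated libraries thus depends on the scaling. Same-letter libraries showed no sign of pairing, although 3 libraries per group cannot exclude it. SDs within a group show the spread of the 3 libraries, in which differences of depth and scaling are included.

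Levels of different subunits were compared per kilobase of merged exons (RPKM). *CCT3* was highest in each library, with a mean level of 390.5 ± 13.4 RPKM with DMSO and 257 ± 26.6 RPKM with TH588 (SD, n = 3 each). In DMSO libraries, *CCT4* followed at 198 ± 1.64, *CCT8* at 195 ± 6.11, *CCT5* at 185 ± 9.15, *CCT7* at 175 ± 5.81, *CCT6A* at 169 ± 10.8, *CCT2* at 141 ± 10.2 and *TCP1* at 137 ± 6.17 RPKM. Neighbours in this order overlapped, except *CCT3* over *CCT4* and *CCT6A* over *CCT2*. In TH588 libraries, the order was *CCT4* at 125 ± 3.76, *CCT8* at 118 ± 11.8, *CCT7* at 104 ± 5.65, *CCT5* at 98 ± 0.821, *CCT6A* at 92.4 ± 4.91, *CCT2* at 85.2 ± 3.96 and *TCP1* at 71.1 ± 4.3 RPKM. Here *CCT4* and *CCT8*, *CCT7* and *CCT5*, and *CCT6A* and *CCT2* overlapped, and the other neighbours did not. The order below *CCT3* depends on the length used: per kilobase of the GENCODE canonical transcript, *CCT4* was the lowest in each DMSO library.

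The makeup of the summed level differed between the groups. The share of *CCT3* in the summed RPKM was 24.5%, 24.7% and 24.4% with DMSO and 28.9%, 26.4% and 25.8% with TH588. Every treated share was above every vehicle share, and the mean difference was 2.49 percentage points, or 1.56 without TH588 A. The share of *TCP1* went the other way, from 8.62 ± 0.0724% to 7.48 ± 0.269% (SD, n = 3 each). *CCT5* went from 11.6 ± 0.255% to 10.3 ± 0.347% and *CCT6A* from 10.6 ± 0.273% to 9.72 ± 0.52%, also without overlap between the groups. The shares of *CCT2*, *CCT4*, *CCT7* and *CCT8* overlapped. Shares sum to a fixed total within a library, so they do not vary independently, and an exact two-sided permutation test cannot go below p = 0.1 here. The ratio of the highest to the lowest subunit level ran from 2.81 to 2.93 in DMSO libraries and from 3.43 to 3.83 in TH588 libraries. With canonical transcript lengths, the same 4 shares had no overlap between the groups, and the ratio ran from 3.27 to 3.45 and from 3.48 to 4.09.

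**Figure D2:**
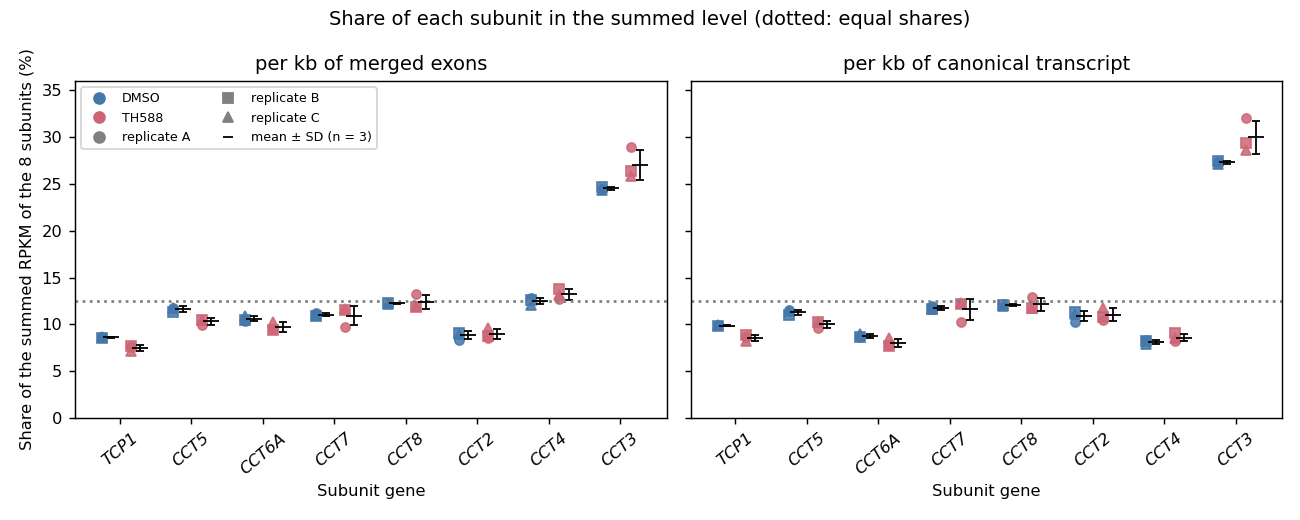
Share of each subunit in the summed RPKM of the 8 subunits (percent, linear axis from 0), per kilobase of merged exons at left and of the canonical transcript at right, with DMSO in blue, TH588 in red, a marker shape per replicate and bars for mean ± SD (n = 3). The dotted line marks equal shares; *CCT3* lies far above it in every library and lies higher with TH588, while *TCP1*, *CCT5* and *CCT6A* lie lower.

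Genes that hand proteins to the chaperonin or work beside it were mixed in direction. Of 13 tested genes of 14 listed, 7 were called lower, against 25.3% of all genes, 2 higher, against 24.2%, and 4 were not called. The median log2 fold change was -0.31, against 0.02 over all genes. In prefoldin, *VBP1* fell by 0.48 on the log2 scale (SE 0.09, adjusted p = 0.000989, edgeR) and *PFDN6* had a log2 fold change of -0.36 (SE 0.11, adjusted p = 0.0169). *PFDN5* rose, from 179.9, 195 and 201 CPM to 277, 223 and 234 CPM (log2 fold change 0.35, SE 0.09, adjusted p = 0.00835, edgeR). *PFDN1*, *PFDN2* and *PFDN4* were not called, at -0.20, -0.18 and -0.31. *PFDN4* was called lower in 4 of the 15 alternative analyses, and *PFDN1* and *PFDN2* were called lower without TH588 A. In the prefoldin-like complex, *UXT* was called lower at -0.53 (SE 0.09), as was *URI1* at -0.30 (SE 0.08), and *PDRG1* was not called at -0.12 (SE 0.13). The calls for *PFDN6* and *URI1* were lost in 5 and 3 of the 15 alternatives. Scaled to library size only, without a composition factor, the calls for *PFDN6*, *URI1*, *PDCL3* and *TXNDC9* were lost, and 5 of the 13 genes were called in place of 9.

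Among the cochaperones, *PDCD5*, which binds the chaperonin, changed most. It had 157, 168 and 160.0 CPM with DMSO and 67.4, 57.1 and 65.3 CPM with TH588. The groups were well separated, with a log2 fold change of -1.36 (SE 0.09, adjusted p = 2.08e-07, edgeR), a larger fall than that of any subunit. The phosducin-like genes *TXNDC9* and *PDCL3* were called lower at -0.50 (SE 0.12) and -0.31 (SE 0.08), while *PDCL* was called higher at 0.30 (SE 0.11, adjusted p = 0.0454, edgeR), a call lost in 9 of the 15 alternatives. *PDCL2* was too low to test. The mitochondrial chaperonin, which folds matrix proteins and shares no subunit with TRiC, had log2 fold changes beyond those of the TRiC subunits. *HSPD1* went from 4107, 3812 and 4209.7 CPM to 1624, 1765 and 1624 CPM (log2 fold change -1.27, SE 0.08, adjusted p = 2.21e-07, edgeR), and its partner *HSPE1* had a log2 fold change of -1.22 (SE 0.12, adjusted p = 4.69e-06).

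The chaperonin-like genes, relatives of the subunits, were too few to set apart from genes at large: of 4 tested, 1 was called lower, against 25.3% of all genes, 2 higher, against 24.2%, and 1 was not called. *BBS12* and *BBS10*, which act with *MKKS* in assembling the BBSome of the primary cilium, were called higher, and *MKKS* lower. *BBS12* had 1.16, 1.68 and 2.12 CPM with DMSO and 4.52, 3.99 and 4.27 CPM with TH588 (log2 fold change 1.35, SE 0.21, adjusted p = 0.000182, edgeR). *BBS10* had a log2 fold change of 0.40 (SE 0.14, adjusted p = 0.0346, edgeR) and *MKKS* of -0.47 (SE 0.13, adjusted p = 0.00986). *CCT6B*, a paralogue of *CCT6A*, stayed under 1.5 CPM in every library and was not called (log2 fold change 0.73, SE 0.29, adjusted p = 0.0562, edgeR), but passed in 5 of 15 alternatives. *CCT8L2* was too low to test. The call for *BBS10* was lost in 5 of the 15 alternatives and that for *MKKS* in 2.

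**Figure D3:**
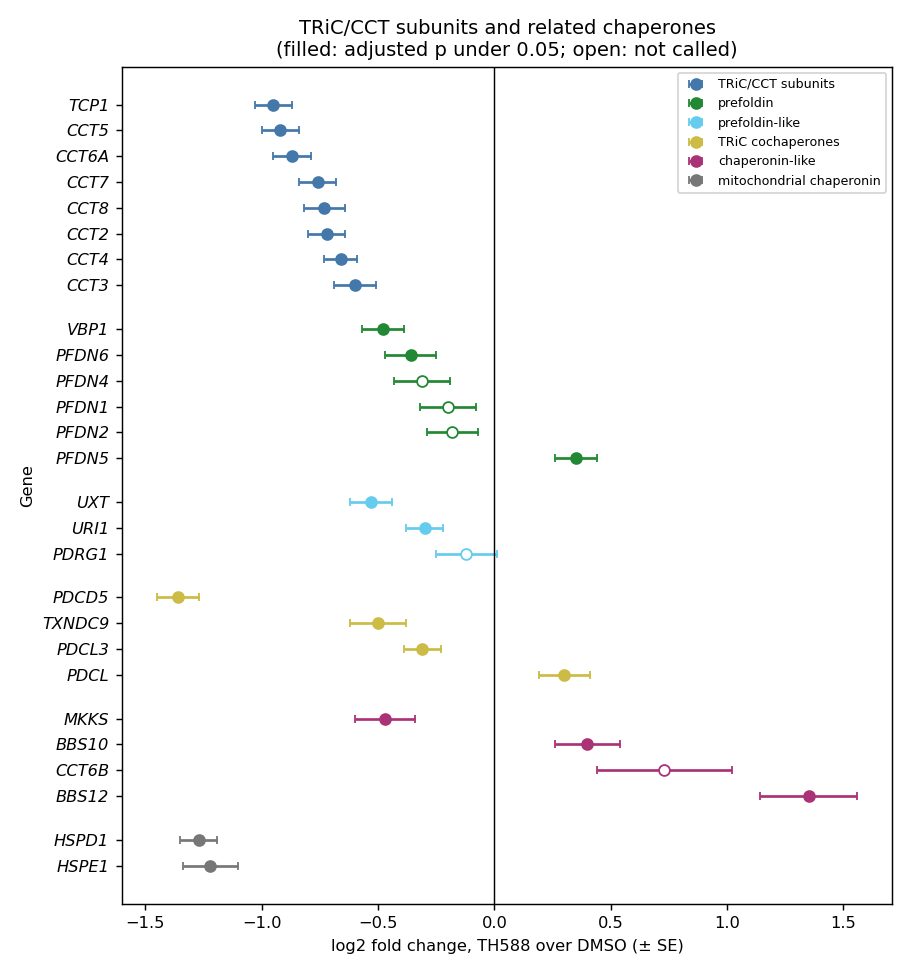
Log2 fold change, TH588 over DMSO, with SE from edgeR for the 8 subunits and the tested genes of the related chaperone lists; filled circles are called at an adjusted p under 0.05 and open circles are not. The subunits lie between -0.95 and -0.60, *PDCD5*, *HSPD1* and *HSPE1* lie further left, and *PFDN5*, *PDCL*, *BBS10* and *BBS12* lie on the right.

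The tubulin genes, whose products are the best known clients of TRiC, were called about as often as genes at large. Of 17 listed, 14 were tested, 4 were called lower, against 25.3% of all genes, 3 higher, against 24.2%, and 7 were not called. The median log2 fold change was 0.08, and it turned to -0.077 without DMSO A and -0.038 without DMSO C and reached 0.165 without DMSO B and 0.174 without TH588 B. The lower calls were those of *TUBB*, *TUBA1C*, *TUBA1B* and *TUBB4B*, the only tubulin genes with mean log2 CPM of 8 or more. Of all genes at that level, 52.1% were called lower. Most of the 7 tubulin genes not called stayed under 4 CPM in every library. *TUBB* had 1791, 1888 and 1953 CPM with DMSO and 665, 596 and 571 CPM with TH588 (log2 fold change -1.62, SE 0.09, adjusted p = 5.98e-08, edgeR). *TUBA1C* was at -1.27 (SE 0.09) and *TUBA1B* at -1.15 (SE 0.15). *TUBB8*, a gene of low level, rose from a mean of 1.67 ± 0.0974 to one of 4.12 ± 0.701 CPM (SD, n = 3 each), or by 1.29 on the log2 scale (SE 0.17). The other higher calls were those of *TUBA1A* and *TUBB4A*. *TUBA1A* went from a mean of 131 to 197 CPM (log2 fold change 0.59, SE 0.11) and *TUBB4A* from 21.1 to 29.8 CPM (0.50, SE 0.10). Tubulin genes share long stretches of sequence, so reads may be split among them. Of the 5 tubulin cofactors, *TBCA*, *TBCB* and *TBCD* were called lower, against 25.3% of all genes, at -0.33, -0.22 and -0.23, while *TBCC* and *TBCE* were not called at -0.20 and -0.17. These cofactor calls were lost in 4, 11 and 10 of the 15 alternatives.

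The actin genes and other clients were called lower more often than higher. Of 19 listed and tested, 11 were called lower, against 25.3% of all genes, 1 higher, against 24.2%, and 7 were not called. Their median log2 fold change was -0.26, against 0.02 over all genes tested. The 570 genes with mean log2 CPM of 8 or more also had a median of -0.26, but most of the 19 lie below that level. *ACTB* and *ACTG1*, the cytoplasmic actins, had log2 fold changes of -0.54 (SE 0.10, adjusted p = 0.000591, edgeR) and -0.33 (SE 0.11, adjusted p = 0.0228). The 4 largest changes were a rise of *STAT3* (1.23, SE 0.08), a transcription factor, and falls of the cyclin gene *CCNE1* (-1.05, SE 0.09), of *CDC20* (-1.03, SE 0.08) and of the mitotic kinase gene *PLK1* (-1.02, SE 0.08). Scaled to library size only, 7 of the 19 were called, and *ACTG1* was not among them (adjusted p = 0.068, edgeR), a call lost in 5 of the 14 alternatives that tested it.

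The summed level of the subunits was set against that of their main clients, per kilobase of merged exons. The ratio of summed subunits to summed alpha and beta tubulins was 0.927, 0.953 and 0.933 with DMSO and 1.02, 1.12 and 1.22 with TH588. Every treated library was above every vehicle library, since the tubulin sum went from 1698 ± 72.6 to 856 ± 108 RPKM and the subunit sum from 1592 ± 59.7 to 951 ± 39.8 RPKM (SD, n = 3 each). The ratio to *ACTB* and *ACTG1* went the other way, from 0.25, 0.279 and 0.276 to 0.203, 0.216 and 0.246, and again the groups did not overlap. The gap was narrow there, between DMSO A and TH588 C. An exact two-sided permutation test on either ratio cannot go below p = 0.1.

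**Figure D4:**
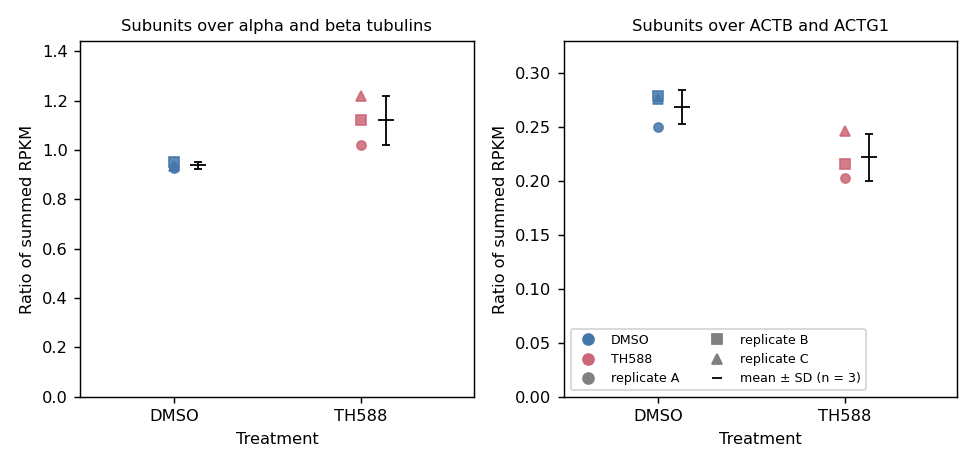
Ratio of the summed RPKM of the 8 subunits to that of the alpha and beta tubulins (left) and of *ACTB* and *ACTG1* (right) in each library, on linear axes from 0, with mean ± SD (n = 3). The tubulin ratio is higher with TH588, at 1.12 ± 0.1 against 0.938 ± 0.0136, and the actin ratio lower, at 0.222 ± 0.0221 against 0.268 ± 0.0159.

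Most of the cytosolic heat shock chaperones, which work ahead of and beside TRiC, were lower. Of 10 genes, 8 were called lower, against 25.3% of all genes and 52.1% of those with mean log2 CPM of 8 or more, and 2 were not called. Their median log2 fold change was -0.61. *HSP90AA1* (-1.11, SE 0.08), *HSPA8* (-0.99, SE 0.10), the HSP70 to HSP90 adaptor gene *STIP1* (-0.87, SE 0.08) and *HSPH1* (-0.87, SE 0.08) had the largest changes among the genes called. The 2 genes not called had positive values, *HSPA1A* at 0.90 (SE 0.61) and *HSPA1B* at 0.44 (SE 0.62), and they are near-identical copies whose reads may be split between them. Without the filter on low counts 2 of the 10 genes were called higher, and without DMSO C 1 was. Of the transcription factors, *HSF1*, the main activator of heat shock genes, was called lower at -0.32 (SE 0.10, adjusted p = 0.0194, edgeR) and *HSF2* higher at 0.22 (SE 0.09, adjusted p = 0.0473), calls lost in 6 and 7 of the 15 alternatives. *MYC* was not called at 0.18 (SE 0.08, adjusted p = 0.0762, edgeR).

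Several subunit genes start close to a second gene on the other strand, counted from the outermost start in the deposited table. The RefSeq starts used for the windows differ for some subunits, so the distances and the pairs listed depend on the start used. *TSACC*, on the other strand inside *CCT3*, is not listed and was not called (log2 fold change 0.44, SE 0.37). Starts lay within 1000 bases of each other in 6 pairs: *TCP1* and *MRPL18* (63 bases), *CCT4* and *COMMD1* (80), *CCT5* and *ATPSCKMT* (24), *CCT6A* and *PSPH* (26), *CCT7* and *PRADC1* (182), and *CCT2* and *MIR3913-1* (511). *MIR3913-1* had 0 counts in each library, and the other 5 neighbours were called lower, against 25.3% of all genes. *MRPL18*, which encodes a mitochondrial ribosomal protein, had 76.3, 85.3 and 77.5 CPM with DMSO and 50.6, 56.9 and 62 CPM with TH588 (log2 fold change -0.49, SE 0.09, adjusted p = 0.000718, edgeR). *PRADC1* was at -0.54 (SE 0.13), *COMMD1* at -0.46 (SE 0.12), *PSPH*, an enzyme of serine synthesis, at -0.36 (SE 0.09) and *ATPSCKMT* at -0.34 (SE 0.11). Each neighbour's log2 fold change was smaller in size than that of its subunit, and the difference within a pair was not tested. Scaled to library size only, *COMMD1*, *PSPH* and *ATPSCKMT* were not called, and the call for *ATPSCKMT* was lost in 6 of the 15 alternatives.

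**Figure D5:**
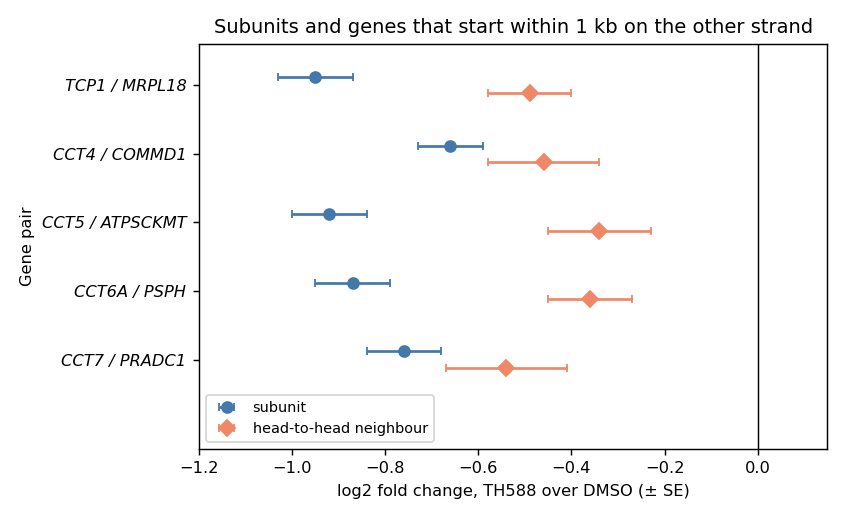
Log2 fold change, TH588 over DMSO, with SE from edgeR for 5 subunits (circles) and the neighbour on the other strand (diamonds). Starts lie within 1000 bases, counted from the outermost starts. Both members of every pair lie to the left of 0, with the neighbour between -0.54 and -0.34 and the subunit between -0.95 and -0.66.

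Reads of related copies and of small RNAs inside the genes were few beside the subunits. The table held 14 pseudogenes of the subunits, and the most abundant, *CCT6P1*, had 339, 340 and 419 counts with DMSO and 86, 232 and 223 counts with TH588, or 0.659% of the counts of *CCT6A*. It was called lower at -0.70 (SE 0.17, adjusted p = 0.00449, edgeR). *CCT6P3* came to 0.432% of *CCT6A* and was not called (log2 fold change 0.02, SE 0.19). Each of the others came to at most 0.058% of its parent. Of these, *CCT8P1*, with 43 counts or fewer in each library, was called higher (log2 fold change 1.37, SE 0.51, adjusted p = 0.0418, edgeR). *SNORA20*, the most abundant small nucleolar RNA inside a subunit gene, lies within *TCP1* and had 203, 612 and 464 counts with DMSO and 279, 375 and 372 with TH588. It was not called (log2 fold change 0.24, SE 0.40, adjusted p = 0.654, edgeR) while its host fell.

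The 5 genes whose log2 CPM followed the mean of the 8 subunits most closely over the 6 libraries were *DCUN1D5* (Pearson r = 0.9996), *NBN* (0.9995), *MELK* (0.9994), *PNPT1* (0.9993) and *MAD2L1* (0.9991). Their log2 fold changes were -0.70, -0.93, -1.19, -0.98 and -1.25. Such likeness was common: 17.7% of the 9754 genes whose mean log2 CPM reached 2 had r above 0.95, and the 6 points share treatment, depth and scaling.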

How the data were processed

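RNA of 3 DMSO and 3 TH588 libraries of A2780 cells was analysed from the deposited gene table, which holds raw counts: the authors aligned reads to GRCh38 with TopHat and counted them per gene with featureCounts 1.4.6, without normalization. Strand setting and the counting of multimapping reads are not given in the sources used here, so values of genes with shared sequence or exons are uncertain. Of 58336 Ensembl identifiers, 57754 matched a symbol. The members and the lists of related genes were chosen with earlier results of these data known.

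Counts were compared with edgeR 4.0.16 in R 4.3.3: TMM scaling, default filter (15844 genes), quasi-likelihood test, two-sided, Benjamini-Hochberg adjustment, no replicate term. SE is the log2 fold change over the square root of F. RPKM is CPM per kilobase of length. Likeness used log2(CPM + 0.5). No set test was run. The procedure was tested on simulated counts in which few genes changed, as many up as down. That test does not cover changes as broad as those called here. Replicates differed by more than sampling noise (chi-square per degree of freedom 25.2 to 179.9), so each library was counted once. The replicates carry the letters A, B and C in the labels, and each library was treated as a separate experiment.

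The genes named were the subunits, every member of the lists of up to 6 genes, the 4 largest called changes in longer lists, the most abundant pseudogene and small nucleolar RNA, and the 5 genes most like the subunits. *ACTB*, *ACTG1*, *TUBB4B*, *TUBA1A*, *TUBB4A*, *TSACC*, *CCT6P3*, *CCT8P1* and the neighbouring genes were added after their values were seen. Alternatives were scaling by library size alone or by DESeq2's size factors, testing with limma-voom (limma 3.58.1) or DESeq2 1.42.0, keeping all genes or those with 10 counts or more per library, removal of the 10 most abundant genes, the replicate letter as a block, an adjusted p under 0.01 and each library left out. Canonical transcript lengths, and left-out libraries for shares and ratios, were chosen after seeing the data.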

Additional observations from a re-analysis of the deposited data

How the results depend on the processing

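The 8 subunits were called lower in each of the 15 alternatives (120 of 120 values), with log2 fold changes between -0.98 and -0.51 and adjusted p-values of at most 0.00123. With each library left out in turn, their median stayed between -0.766 and -0.702. With library size only, the median of all genes moved from 0.019 to 0.126 and that of the subunits from -0.745 to -0.644, so that the distance between them was -0.76 and -0.77. The same setting called 5 in place of 9 prefoldin, prefoldin-like and cochaperone genes and 7 in place of 12 actin and other client genes, and it moved the share of higher calls over all genes from 48.9% to 60.4%, with 2786 genes lower and 4248 higher. With a library left out, 6 to 10 of the former genes and 8 to 12 of the latter were called.

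The letters A, B and C gave no sign of pairing: deviations of libraries with the same letter correlated at -0.06, -0.07 and 0. So few libraries cannot exclude pairing. The fit with a replicate block called 7195 genes, 7129 of them among the 7852 called without it, and the subunits were 8 of 8 with a median of -0.748. With libraries left out in turn, *SNORA20*, not called in any fit, ran from -0.315 without TH588 replicate A to 0.649 without DMSO replicate B, and it also turned negative without DMSO replicate A, at -0.066; the cause was not tested. Over the 61 single genes, 821 values kept direction and call, 77 lost the call and 12 gained it. The 70 alternative values of shares and ratios moved by less than the spread between replicates. For left-out libraries this outcome was fixed in advance, since dropping 1 of 3 libraries cannot move a mean difference by that much. Those values therefore say nothing about stability. Depth limits the genes near 1 CPM, such as *CCT6B*, while the subunits together held at least 106768 counts in each library.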
